A study of Mus musculus with 88 samples.

Results

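The data described here are the transcript levels of 10 maternal factors for zygotic genome activation, Pou5f1, Sall4, Nr5a2, Nfya, Yap1, Trim24, Smarca4, Smarca5, Ctcf and Lin28a, in single germinal vesicle (GV) oocytes of young and aged mice. The genes were chosen by name, and each was matched to 1 of 38540 features of an oocyte transcriptome. In all, 2 features took their gene name from the part of the study's feature table that was read here, and 8 were named by the same-strand GENCODE M21 gene whose span overlapped theirs best. Overlap with that gene, as the shared over the combined span, ran from 0.921 for Trim24 to 0.999 for Nfya. All 10 features had a count above 0 in 87 of 87 oocytes, and all 10 averaged at least 10 counts, a level that 12408 features reached.

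RNA was measured by Smart-seq2 as the transcriptome part of a single-cell protocol that also reads DNA methylation, in fully grown GV oocytes of virgin C57BL/6Babr females. The young females were 12 weeks old and gave 42 oocytes, and the aged females were 44 to 54 weeks old and gave 46 oocytes. The study assigned oocytes to the non-surrounded nucleolus (NSN) or the surrounded nucleolus (SN) configuration, from transcripts of the same oocytes, which left 30 young NSN, 12 young SN, 37 aged NSN and 8 aged SN oocytes and 1 aged oocyte without a configuration. The configuration was therefore not read independently of the RNA, and no gene difference between SN and NSN is free of that choice. The paper took the aged oocytes from more mice than the young ones. Since no source used here ties oocytes to mice, each age was taken as 1 sample and groups were not tested against each other. SDs over oocytes and 95% intervals of summed counts describe the data. The intervals cover counting error only. Total counts ran from 2338311 to 4546294 in young NSN, 1579196 to 8231046 in young SN, 976456 to 5448310 in aged NSN and 1007492 to 4798888 in aged SN oocytes. The numbers in the oocyte names form 6 unbroken runs, 3 for each age, and a name ends in the suffix A or in no suffix. The sources used here do not explain either, and both moved with several of the results below.

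A growing oocyte stores RNA and protein, falls silent as its chromatin condenses around the nucleolus, and must carry the embryo through its first divisions on that store. NSN oocytes are still transcribing, and SN oocytes are largely silent and more often support development. Maternal factors for genome activation include transcription factors that bind the first active promoters and enhancers, coactivators they recruit, enzymes that move nucleosomes to open chromatin, and RNA-binding proteins that act on the stored messages. POU5F1 (OCT4), SALL4, the orphan nuclear receptor NR5A2 and NFYA, the DNA-binding regulatory subunit of the CCAAT-binding factor NF-Y, belong to the first kind. YAP1, the coactivator that the Hippo kinases restrain, and TRIM24, a nuclear receptor cofactor that reads histone marks, belong to the second. SMARCA4 (BRG1) is the ATPase of BAF complexes, SMARCA5 (SNF2H) is the ATPase of ISWI complexes, and CTCF is the zinc-finger protein that positions chromatin loops. LIN28A binds RNA and blocks maturation of let-7 microRNAs.

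The features lie on GRCm38 at chr17:35506001-35510826 (Pou5f1, plus strand), chr2:168748332-168768036 (Sall4, minus), chr1:136842572-136954427 (Nr5a2, minus), chr17:48386885-48409925 (Nfya, minus), chr9:7931992-8005389 (Yap1, minus), chr6:37870111-37973744 (Trim24, plus), chr9:21616003-21703366 (Smarca4, plus), chr8:80698507-80740171 (Smarca5, minus), chr8:105636412-105682922 (Ctcf, plus) and chr4:134003209-134019252 (Lin28a, minus). RefSeq promoters (GRCm38.p6), each running from 250 bases before to 50 bases after a RefSeq start, were held for 9 of the 10 genes. The start of the oocyte feature fell inside the nearest of these windows for 4 genes, and those windows are shown because they place the 5′ end of the oocyte transcript. Capitals mark the first 10 bases of the oocyte feature, 31 bases before the RefSeq start in Pou5f1, 105 in Nfya, 126 in Ctcf and 166 in Smarca4.
Pou5f1, chr17:35505782-35506081, plus strand: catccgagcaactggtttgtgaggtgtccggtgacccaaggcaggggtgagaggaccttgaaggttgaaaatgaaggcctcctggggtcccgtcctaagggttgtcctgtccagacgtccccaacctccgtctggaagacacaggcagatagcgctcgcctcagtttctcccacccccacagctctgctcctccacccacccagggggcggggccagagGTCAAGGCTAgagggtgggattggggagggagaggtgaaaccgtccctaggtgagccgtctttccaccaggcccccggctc
Nfya, chr17:48409771-48410070, minus strand: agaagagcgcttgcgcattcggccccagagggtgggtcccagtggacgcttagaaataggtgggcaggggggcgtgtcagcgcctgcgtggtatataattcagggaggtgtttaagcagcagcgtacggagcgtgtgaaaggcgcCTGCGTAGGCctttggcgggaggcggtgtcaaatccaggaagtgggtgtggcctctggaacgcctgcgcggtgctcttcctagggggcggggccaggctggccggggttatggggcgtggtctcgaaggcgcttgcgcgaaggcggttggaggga
Ctcf, chr8:105636288-105636587, plus strand: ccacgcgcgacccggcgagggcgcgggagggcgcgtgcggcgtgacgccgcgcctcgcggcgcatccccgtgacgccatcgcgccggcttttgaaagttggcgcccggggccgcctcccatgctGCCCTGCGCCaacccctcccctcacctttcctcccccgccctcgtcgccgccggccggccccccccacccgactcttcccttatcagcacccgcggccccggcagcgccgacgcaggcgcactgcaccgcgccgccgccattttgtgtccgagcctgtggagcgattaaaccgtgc
Smarca4, chr9:21615919-21616218, plus strand: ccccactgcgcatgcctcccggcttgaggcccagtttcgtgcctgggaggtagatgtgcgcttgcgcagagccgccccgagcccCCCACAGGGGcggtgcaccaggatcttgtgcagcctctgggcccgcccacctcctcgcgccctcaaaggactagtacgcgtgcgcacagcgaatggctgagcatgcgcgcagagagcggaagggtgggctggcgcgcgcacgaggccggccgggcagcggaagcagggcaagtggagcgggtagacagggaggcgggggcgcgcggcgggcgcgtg

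In the other genes with a promoter the oocyte feature began further upstream of the nearest RefSeq start, by 436 bases in Lin28a, 700 in Trim24, 712 in Smarca5, 793 in Yap1 and 797 in Nr5a2, so that their windows lie inside the oocyte feature. The motif CCAAT, which NF-Y binds, was searched on both strands and was found in the nearest window of 3 of 9 genes (Pou5f1, Nr5a2 and Trim24), against 37.4% of all 32851 promoters. Trim24 held it at 2 places, in capitals here, once on each strand.
Trim24, chr6:37870561-37870860, plus strand: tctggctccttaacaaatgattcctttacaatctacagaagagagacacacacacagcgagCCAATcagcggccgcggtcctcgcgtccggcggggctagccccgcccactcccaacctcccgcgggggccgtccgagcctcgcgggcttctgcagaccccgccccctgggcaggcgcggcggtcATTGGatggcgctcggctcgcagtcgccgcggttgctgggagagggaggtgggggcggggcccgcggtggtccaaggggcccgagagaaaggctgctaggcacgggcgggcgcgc
GGAATG, a TEAD motif through which YAP1 acts, was found in the nearest windows of Yap1 and Nr5a2 and in 14.7% of all promoters, and ATGCAAAT, the octamer, in none of the 9 and in 1.74% of all. AAGGTCA, a site for NR5A receptors, was found in none of the 9 and in 4.72% of all. These matches describe letters and not binding.

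Smart-seq2 primes on poly(A) tails, whose length in oocytes is set for some messages by cytoplasmic polyadenylation elements near the 3′ end. The elements TTTTAT and TTTTAAT were searched on the transcript strand in the last 100 bases of the longest GENCODE coding transcript. They were found in 2 of 10 members, against 19.8% of 9021 genes averaging at least 10 counts. The sites are shown as 30 bases with the element in capitals, because stored messages with such an element can lengthen their tails at maturation.
Nfya: tttcttTTTTAATaaatttataaaaatact
Yap1: tacaataaaccaatTTTTATaatcttaaaa

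Levels of the 10 transcripts spanned a wide range. Per kilobase of exon, over 87 oocytes, Pou5f1 was highest with 82.5 CPM (counts scaled to a common library total) per kb, followed by Sall4 with 68.9, Nfya with 25.9, Yap1 with 25.1, Ctcf with 20.4, Smarca5 with 20.4, Lin28a with 19.4 and Trim24 with 16.4. Smarca4 with 7.37 and Nr5a2 with 4.41 CPM per kb were lowest, and were the only members under the median of 8.11 CPM per kb over 9808 named features. With the longest transcript as the length, Trim24 moved from rank 8 to rank 5, and the first 4 and last 2 places were kept. Values below are CPM without length and are compared only within a gene.

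Pou5f1 lay between 152 and 219 CPM in young NSN oocytes, with a median of 176. In aged NSN oocytes it lay between 141 and 259 CPM, with a median of 189. In SN oocytes the lowest, median and highest were 162, 175 and 221 CPM in young and 156, 167 and 180 CPM in aged. The groups overlapped, and the aged SN oocytes were the most alike, with an SD of 7.38 CPM against 30.3 CPM in aged NSN. A feature on the other strand, Gm19553, shares 1475 bases with Pou5f1, held 20.1% as many counts and had a Spearman correlation of 0.83 with it over 87 oocytes. The library kit does not keep strand and the counting setting is not stated, so reads of this pair cannot be told apart. Pou5f1 also has processed pseudogenes, and reads that fit several copies make its level uncertain.

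Sall4, which shares many targets with OCT4 in early embryos, had a lowest, median and highest of 296, 386 and 449 CPM in young NSN and 261, 383 and 507 CPM in aged NSN oocytes. In SN oocytes these were 317, 390 and 422 CPM in young and 345, 367 and 400 CPM in aged. Its pooled level, counts summed over oocytes and divided by summed totals, stayed between 372 and 393 CPM in the 4 groups. Nr5a2 was scarce, with medians of 26.6, 26.4, 26.6 and 25.2 CPM in young NSN, young SN, aged NSN and aged SN oocytes, and with as few as 24 counts in an oocyte. Smarca4 was similarly even, with pooled levels from 45.8 CPM in aged NSN to 49.7 CPM in young SN.

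Nfya had a lowest, median and highest of 163, 201 and 275 CPM in young NSN and 106, 178 and 271 CPM in aged NSN oocytes. In SN oocytes these were 148, 180 and 226 CPM in young and 123, 183 and 218 CPM in aged. Of 37 aged NSN oocytes, 14 fell under the lowest young NSN oocyte and 0 exceeded the highest. Yap1 had a lowest, median and highest of 177, 232 and 287 CPM in young NSN and 157, 243 and 536 CPM in aged NSN oocytes. Its highest value belonged to aged oocyte 31 without suffix, whose next neighbour had 311 CPM. The same oocyte, of 732 Yap1 counts, was also the highest of 87 for Trim24 (223 CPM) and Ctcf (163 CPM).

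Smarca5 varied widely between oocytes in every group but the aged SN. Its lowest, median and highest were 106, 150 and 272 CPM in young NSN and 83.9, 150 and 295 CPM in aged NSN oocytes. In SN oocytes these were 84.9, 130 and 221 CPM in young and 111, 118 and 131 CPM in aged. All 8 aged SN oocytes lay below the median of the aged NSN oocytes but inside their range. Lin28a had a lowest, median and highest of 57.7, 79.7 and 106 CPM in young NSN and 41.6, 80.0 and 119 CPM in aged NSN oocytes, with close medians and a wider range in the aged. Gm13061, on the strand opposite Lin28a, held 19.3% as many counts, with the same limit as for Pou5f1. Its Spearman correlation with Lin28a was -0.09. Features opposite Sall4, Yap1 and Ctcf held at most 5.23% as many counts as the member. Trim24 ranged over groups from a median of 131 CPM in young SN to 144 CPM in young NSN, and Ctcf from 89.4 CPM in young SN to 105 CPM in aged NSN oocytes.

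The 4 groups were placed in order of pooled level. The highest and lowest groups differed by more than the largest SD between oocytes of any of the 4 groups in 2 of 10 members. For Nfya the difference was 44.7 CPM between young NSN and aged SN against an SD of 41.4 CPM. For Smarca5 it was 53.4 CPM between the same groups against an SD of 50.2 CPM. Both SDs are those of aged NSN oocytes. Means over oocytes of young NSN and aged SN were 207 and 171 CPM for Nfya and 167 and 119 CPM for Smarca5. These means lay closer together than the SDs. In the other 8 members the order of the groups lay within the spread of oocytes.

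**Figure D1:**
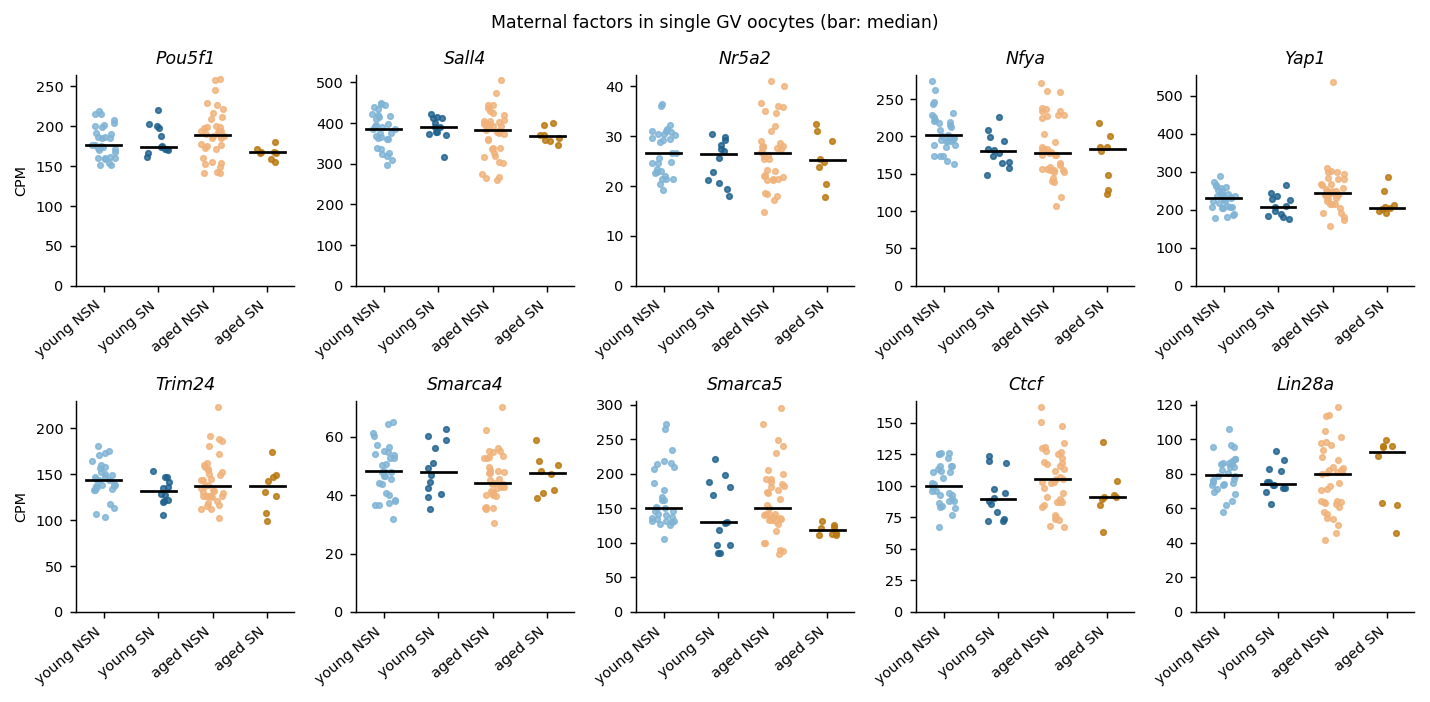
CPM of each maternal factor (vertical axis, linear from 0) in single young NSN (30), young SN (12), aged NSN (37) and aged SN (8) oocytes, with points for oocytes and bars for medians. The groups overlap for every gene, Yap1 has 1 aged NSN oocyte at 536 CPM, and Smarca5 in aged SN oocytes stays between 111 and 131 CPM.

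The first question was whether the store of these messages differed with maternal age within a configuration. Among NSN oocytes the levels were close. Nfya was 182 CPM in aged against 208 CPM in young (log2 ratio -0.20, 95% interval -0.23 to -0.17), and Yap1 was 251 against 230 CPM (log2 ratio 0.13, interval 0.10 to 0.16). Pou5f1 had a log2 ratio of 0.08, Ctcf of 0.02, Trim24 of -0.02, Smarca5 of -0.02, Sall4 of -0.03, Nr5a2 of -0.05, Lin28a of -0.09 and Smarca4 of -0.09. A bound was set at 25% higher, or lower by the same factor. Past it in either direction were 0 of 10 members, beside 5.89% of all features, and the median log2 ratio was -0.03 over the members and -0.01 over all features. The mean difference was smaller than the larger SD between oocytes for each of the 10.

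The lower Nfya level went with the suffix A and with the run 41 to 48. The Nfya median was 157 CPM in 19 aged NSN oocytes with the suffix and 228 CPM in 18 without it. In young NSN oocytes it was 205 and 200 CPM. Aged NSN oocytes of the run 41 to 48 without the suffix lay between 155 and 185 CPM. The log2 ratios below are for Nfya. The log2 ratio of aged over young was -0.44 with the suffix, past the bound, and 0.03 without it. It was -0.33, again past the bound, without the aged run 25 to 31, and -0.055 without the aged run 41 to 48. The direction of 8 of the 10 members turned under at least 1 of the alternative settings, Yap1 and Smarca4 being the exceptions.

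Among SN oocytes Pou5f1 was 169 CPM in aged against 191 CPM in young (log2 ratio -0.18, interval -0.24 to -0.12), Smarca5 was 117 against 129 CPM (-0.13) and Nfya 164 against 177 CPM (-0.11). The remaining 7 members lay between -0.08 and 0.05. Past the bound were 0 of 10 members, beside 16% of all features. The median log2 ratio was -0.03 over the members and -0.01 over all features. These directions rested on few oocytes. The median was 0.12 without the aged run 41 to 48, 0.02 without the young run 33 to 39 and 0.05 with the suffix A. All 3 aged SN oocytes with the suffix A came from the run 25 to 31. Smarca5 was -0.41, past the bound, without the young run 17 to 24 and 0.17 without the young run 33 to 39, and Nfya ranged from -0.25 to 0.13 over the settings. Lin28a (0.34, without the aged run 41 to 48) and Nr5a2 (0.37, with the suffix A) also passed the bound in 1 setting each. With both configurations together, 45 aged against 42 young oocytes, 0 of 10 members were past the bound, beside 4.51% of all features, and the medians were -0.01 over the members and over all features.

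SN oocytes were then compared with NSN oocytes, as assigned from their transcripts, since neither chromatin nor transcription was measured in these cells. Smarca5 was lower in SN at both ages. In young oocytes it was 129 CPM in SN against 171 CPM in NSN (log2 ratio -0.41, interval -0.45 to -0.36), and in aged oocytes 117 against 168 CPM (-0.52, interval -0.58 to -0.45). It was the only member past the bound at either age, beside 15.3% of all features in young and 34.7% in aged oocytes. Pooling weights oocytes by their totals, which in young SN oocytes had a median of 2787508 and a highest of 8231046. With means or medians over oocytes, no member passed the bound in young oocytes. Means over oocytes were 141 against 167 CPM in young and 119 against 163 CPM in aged, closer than the larger SDs of 47.8 and 50.2 CPM, while the pooled levels in aged oocytes lay slightly further apart than that SD. Nfya, Yap1, Trim24 and Ctcf had log2 ratios within the bound, from -0.24 to -0.17 in young and from -0.25 to -0.13 in aged oocytes. In the young, Nfya and Ctcf passed the bound without the run 33 to 39 (-0.39 and -0.38) and were -0.027 and -0.030 without the run 17 to 24. In the aged, Yap1 passed it without the run 9 to 16, at -0.32. Pooled by run, Ctcf was lower in SN in 3 of 6 runs, Nfya and Yap1 in 4 and Trim24 in 5. Nr5a2 had -0.16 in young and -0.07 in aged oocytes, and Lin28a -0.09 and 0.01. The aged values split by suffix. With the suffix A, SN over NSN was 0.35 for Nr5a2, 0.50 for Lin28a, 0.25 for Nfya and 0.07 for Trim24. Without it the values were -0.38, -0.33, -0.46 and -0.27. All 3 aged SN oocytes with the suffix A came from the run 25 to 31, so suffix and run were not separated. Pooled within that run, SN over NSN was -0.08 for Nr5a2, 0.01 for Lin28a, -0.23 for Nfya and -0.13 for Trim24. Sall4 and Smarca4 stayed within 0.04 of 0 at both ages. Pou5f1 was 0.08 in young and -0.18 in aged oocytes, and the difference between the ages was not tested. The median log2 ratio of the members was -0.17 in young and -0.14 in aged oocytes, beside 0.01 and 0.00 over all features on the same scale.

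The young Smarca5 difference leaned on few oocytes. Pooled by run, it was -1.07 in the run 1 to 7 with 1 SN oocyte, -0.67 in the run 17 to 24 with 5 and 0.03 in the run 33 to 39 with 6. Without the run 17 to 24 it was -0.14, and with counts thinned to 900000 in every oocyte it was -0.27, both within the bound. In aged oocytes it was -0.13 in the run 9 to 16 with 2 SN oocytes, -0.56 in the run 25 to 31 with 3 and -0.70 in the run 41 to 48 with 3. In the aged, it stayed between -0.66 and -0.34 under every setting tried. NSN oocytes without the suffix A had more Smarca5 than those with it at both ages, with medians of 182 against 140 CPM in young and 182 against 134 CPM in aged.

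**Figure D2:**
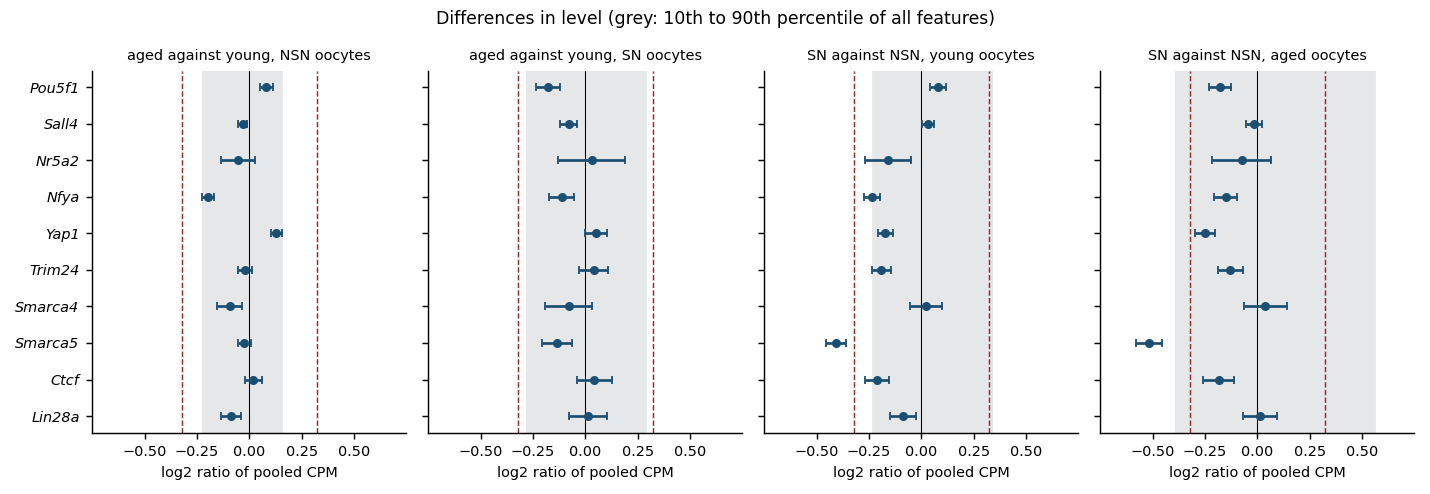
Log2 ratio of pooled CPM (horizontal axis) of each maternal factor in 4 comparisons, with 95% counting intervals as bars, dashed lines at 25% higher and its inverse and grey from the 10th to the 90th percentile of all features. Smarca5 passes the dashed line in both comparisons of SN with NSN oocytes, at -0.41 and -0.52, and no other gene passes it.

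The spread between oocytes differed more than the level. The paper took the oocytes from 3 young mice of 12 weeks and 7 old mice of 44 to 54 weeks. Spread between mice was therefore not separated from spread with age, and its part was not tested. Spread was measured as the squared coefficient of variation (CV) of scaled counts less the part that counting gives, and is printed as its root in percent. In aged NSN against young NSN oocytes it was higher for 9 of 10 members, beside 74.1% of all features, and over 2-fold higher for 7 of 10, beside 28% of all features. With the variance taken within runs the latter count was 4, beside 26.4%, and within runs and suffix 3, beside 28.7%. Yap1 had a CV of 23.9% in aged and 11.7% in young (log2 ratio of squared CV 2.06), Lin28a 24.3% and 11.9% (2.05), and Nfya 21.7% and 12.6% (1.57). Nr5a2 had 20.4% and 13.3% (1.22), Pou5f1 15.2% and 10.3% (1.12), Ctcf 21.6% and 14.9% (1.08), Trim24 17.5% and 12.3% (1.01) and Sall4 15.4% and 11.0% (0.97). Smarca5 was spread widely at both ages, 30.4% and 25.5% (0.51), and Smarca4 was the exception with 14.4% in aged and 16.1% in young (-0.32). The median log2 ratio was 1.10 over the members and 0.52 over all features. With both configurations together it was 1.07 and 0.45, and 9 of 10 members were higher in aged, again beside 74.1%. Among SN oocytes alone, 8 aged and 12 young, 6 of 10 members were higher in aged, beside 40.4% of all features, with a median of 0.25. Within runs 1 of 10 was, Trim24, beside 36.8%, and the median was -2.63, with Pou5f1 and Smarca5 at counting noise in the aged.

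Much of this lay between the runs and suffixes of the aged oocytes. With the variance taken within runs the median log2 ratio was 0.84 over the members and 0.45 over all features, and 9 of 10 members were higher in aged, beside 70.5%. With the variance taken within runs and suffix the medians were 0.54 and 0.49, and 8 of 10 members were higher in aged, beside 71%. Lin28a fell from 2.05 to 1.56 and Nfya from 1.57 to 0.51, Nr5a2 turned to -0.64, and Pou5f1 rose to 3.46 since its young CV was 3.33% within run and suffix. Yap1 kept 1.97, but its log2 ratio over all variance was 0.71 without aged oocyte 31, and that of Trim24 was 0.61. Aged totals reached lower than young totals, and with 900000 counts an oocyte the medians were 0.84 over the members and 0.56 over all features.

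**Figure D3:**
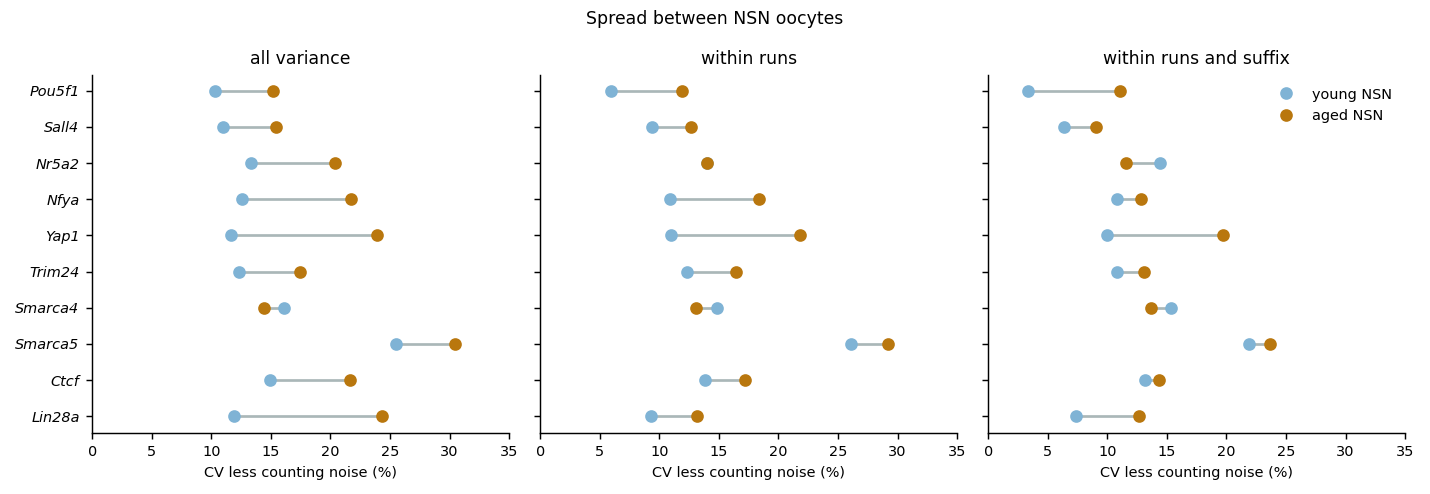
CV between NSN oocytes less counting noise (horizontal axis, percent) of each maternal factor, young (30 oocytes) and aged (37 oocytes), with all variance, variance within runs, and variance within runs and suffix. The aged point is to the right for 9, 9 and 8 of 10 genes, and the gap for Nfya and Ctcf narrows from left to right.

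By run, the medians of the aged NSN oocytes were highest in the run 25 to 31 for 9 of 10 members and lowest in the run 41 to 48 for 7 of 10. Lin28a was clearest, with run medians of 80.3, 97.7 and 59.2 CPM in the aged and 83.7, 84.8 and 73.4 CPM in the young oocytes. Ctcf had 121, 118 and 84.1 CPM in the aged and 111, 98.7 and 94.1 CPM in the young. The highest run median over the lowest was larger in aged than in young oocytes for 8 of 10 members, Pou5f1 and Smarca4 being the exceptions. The runs of the 2 ages overlapped for every member. Runs took a median of 32% of the variance of log2 CPM in aged and 18.1% in young NSN oocytes.

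**Figure D4:**
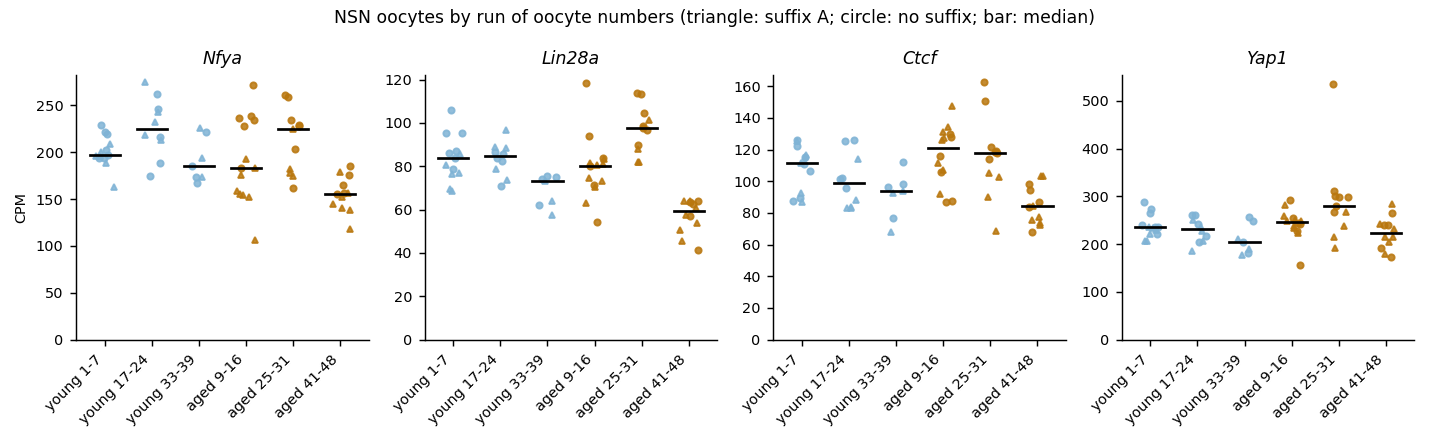
CPM of Nfya, Lin28a, Ctcf and Yap1 (vertical axis, linear from 0) in NSN oocytes by run of oocyte numbers, 3 young and 3 aged runs, with triangles for the suffix A, circles for none and bars for medians. Lin28a is lowest in the aged run 41 to 48, with a median of 59.2 CPM, and highest in the aged run 25 to 31, with 97.7 CPM.

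Aged NSN oocytes left the young NSN range in 77 of 370 values of the members, 42 below and 35 above, or 20.8% of values beside 12.3% over all features. They were spread over oocytes: 5 of 37 had no member outside the young range, 16 had 2 and 1 had 7. Values below the range came mainly from the runs 9 to 16 and 41 to 48, with 19 and 22, and 1 from the run 25 to 31. Nfya gave the most, 14, and Smarca4 the fewest, 2.

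Among SN oocytes the spread of the members was mostly lower than among NSN oocytes of the same age. In aged oocytes 10 of 10 members were less spread in SN than in NSN, though Lin28a had a CV of 24.3% in both. Beside this, 27.9% of features were more spread. The count depended on scaling, since 2 members were more spread in SN with median of ratios factors and 3 with TMM factors. The median log2 ratio was -0.97 with each. In young oocytes 6 of 10 were less spread, beside 53.5% more spread. Pou5f1 and Smarca5 varied no more than counting allows in the 8 aged SN oocytes. The aged direction did not hold without the run 25 to 31.

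Most pairs of members were positively correlated across oocytes. Spearman correlations of CPM over 87 oocytes, which share total counts, runs and configuration, were above 0 for 41 of 45 pairs, with a median of 0.29. No share over pairs of other features was taken, so whether the members stand out was not tested. The strongest pairs were Nfya with Lin28a (0.61), Trim24 with Ctcf (0.60) and Trim24 with Smarca5 (0.49), and the lowest was Pou5f1 with Ctcf (-0.21). Nfya with Lin28a was 0.72 in aged NSN and 0.35 in young NSN oocytes, while Trim24 with Ctcf was 0.53 and 0.58. Ranked within the 4 groups, these pairs were 0.50 and 0.61. Correlations with the total count ran from -0.28 for Ctcf to 0.23 for Sall4. Among aged NSN oocytes alone they ran from -0.36 for Nfya to 0.24 for Smarca5, with -0.28 for Lin28a.

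**Figure D5:**
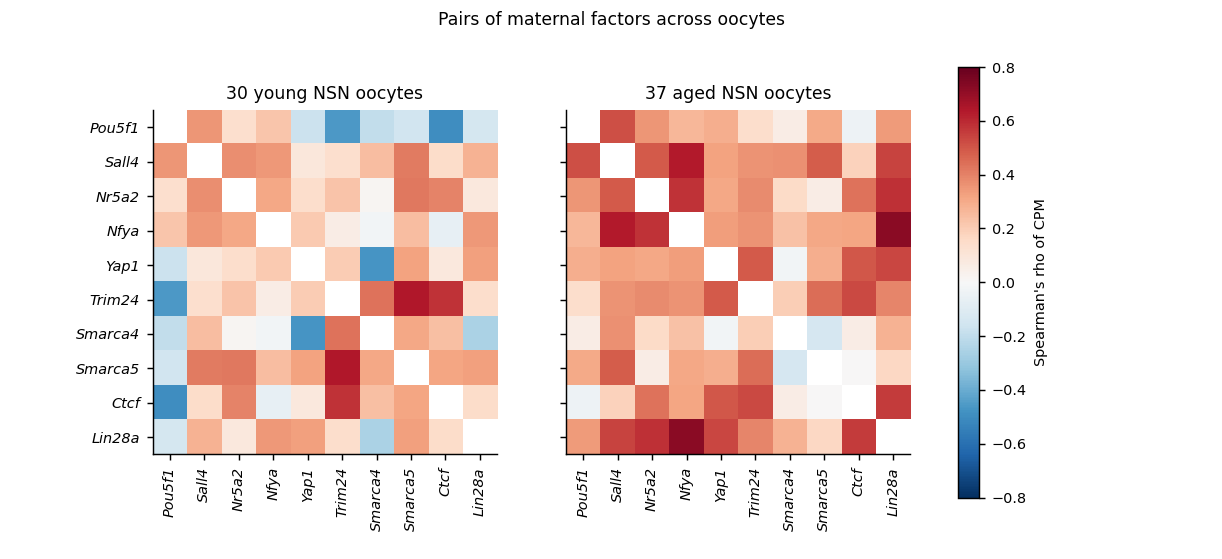
Spearman correlation of CPM (color) for each pair of maternal factors over 30 young NSN oocytes (left) and 37 aged NSN oocytes (right). Pairs were above 0 in 35 of 45 cases in young and 42 of 45 in aged oocytes, and Nfya with Lin28a reached 0.72 in aged.

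The named features most like each member over 87 oocytes, by Spearman correlation, were as follows. Smarca5 was most like Casp8ap2 (0.83) and Wapal (0.82), which were also lower in SN oocytes, with log2 ratios of -0.42 each in young and -0.42 and -0.39 in aged. Nfya was most like Tcf20 (0.80) and Lyst (0.75), Pou5f1 like Tesc (0.77) and Polr2c (0.73), and Ctcf like Csnk2a2 (0.77) and Phf3 (0.77). Trim24 was most like Ankrd17 (0.76) and Mycbp2 (0.74), and Sall4 like Ppfia1 (0.74) and Tmtc1 (0.70). Lin28a was most like Tet3 (0.74) and Ice1 (0.68), and Nr5a2 like Arhgef12 (0.58) and, again, Tet3 (0.56), the dioxygenase that oxidizes methylcytosine in the zygote. With 900000 counts an oocyte both values for Nr5a2 were lower, 0.30 and 0.33. Yap1 was most like Alg10b (0.68) and Ireb2 (0.65), and Smarca4 like Myo10 (0.65) and Camsap1 (0.61).

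Partners of the members were as level between ages among NSN oocytes. Of 103 listed partner genes, 72 averaged at least 10 counts, and in aged against young NSN oocytes 0 were higher and 3 lower past the bound, beside 5.89% of all features past it, with a median log2 ratio of 0.01. The 3 were Smc1a, a cohesin subunit, at 56.9 CPM in aged and 91.5 CPM in young (log2 ratio -0.69), Dppa4 at 7.97 and 11.0 CPM (-0.47), and Amot, a Hippo scaffold, at 6.77 and 8.97 CPM (-0.41). The NF-Y partners Nfyb and Nfyc had ratios of 0.28 and -0.06 beside the -0.20 of Nfya. Among 14 BAF genes and 8 ISWI partners that averaged at least 10 counts, 0 passed the bound with age in NSN oocytes. In SN oocytes 8 of the 72 partners were higher and 4 lower in aged past the bound, beside 16% of all features. They included the BAF genes Smarcc1 (log2 ratio 0.49) and Pbrm1 (0.34), both higher.

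Between configurations 10 of the 72 partners were past the bound in young and 18 in aged oocytes, beside 15.3% and 34.7% of all features, so the share of partners was below that of all features. Of 11 Hippo genes, 5 were higher in SN in young and 6 in aged oocytes, beside 10.9% and 20% of all features, 0 were lower at either age, and the medians were 0.22 and 0.59, while Yap1 had -0.17 and -0.25. Amot went from 8.97 to 15.5 CPM in young and from 6.77 to 18.6 CPM in aged, and the kinase cofactors Mob1b and Mob1a from 46.8 to 72.0 and from 36.5 to 54.7 CPM in young. In the other direction, the cohesin loader Nipbl was 136 against 194 CPM in young and 137 against 188 CPM in aged oocytes (log2 ratios -0.51 and -0.45). Trim71, which acts beside LIN28A in repressing messages, was higher in SN, 126 against 96.5 CPM in young and 126 against 85.5 CPM in aged. Of 5 pluripotency factors 1 passed the bound at both ages, Sall2, a relative of Sall4, which had 7.02 against 5.58 CPM in young and 7.33 against 5.65 CPM in aged (log2 ratios 0.33 and 0.38). The others, Klf17 and Esrrb among them, stayed within it. Of 12 other maternal factors for genome activation, 0 passed in young oocytes, and in aged oocytes 1 did, Chd1 (0.66), beside the same 15.3% and 34.7%. Of 3 transcripts of the 2-cell stage that averaged at least 10 counts, Tcstv1 lay between 119 and 136 CPM and Tcstv3 between 22.6 and 26.2 CPM in the 4 groups. Zscan4d, which averaged 13.8 counts, was 3.96 CPM in young NSN, 5.32 in young SN, 5.79 in aged NSN and 3.87 in aged SN oocytes, past the bound upward with age in NSN (log2 ratio 0.55) and downward in SN (-0.46).

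The label of the cells was checked with marker lists. Summed CPM of 11 oocyte markers, such as Gdf9, Zp2 and Bmp15, lay between 12705 and 25530 in every oocyte. Summed CPM of 11 granulosa and cumulus cell markers lay between 6.73 and 99.4 in young NSN, 10.7 and 51.8 in young SN, 6.14 and 108 in aged NSN and 16.9 and 47.1 in aged SN oocytes, and 4 of the 11, Amh, Foxl2, Wt1 and Amhr2, averaged under 1 count. Averaging at least 10 counts were Kitl (33.2), Inha (16.6) and Gja1 (15.2), and Gja1 was 3.20 CPM in aged and 7.81 CPM in young NSN oocytes (log2 ratio -1.29). That sum had a Spearman correlation of 0.44 with Sall4 over 87 oocytes and of at most 0.22 with the other 9 members. Of 6 markers of other ovarian cells only Pecam1 averaged at least 10 counts, and the sum lay between 40.3 and 101 CPM.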

How the data were processed

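RNA of single GV oocytes was read by Smart-seq2. Per the paper's methods, the authors trimmed reads, aligned them to GRCm38 with HiSat2 and counted primary alignments over an oocyte transcriptome, and deposited raw counts for each feature and oocyte without normalisation. The counting program and its strand setting are not given in the sources used here. Reads carry no molecular identifiers. The methylation data were not analysed here.

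Age groups came from the labels and configurations from the study's supplementary table, where totals equalled the deposited ones in 87 of 88 oocytes. The members and gene lists were chosen with earlier results of these data known, and a listed gene is not reported here and was left out of the counts. Pooled CPM (summed counts over summed totals), exact Poisson and conditional binomial 95% intervals, squared CVs less counting noise and Spearman correlations came from scipy 1.17.1 and numpy 2.4.6 under Python 3.11.15. TMM factors came from edgeR 4.0.16 in R 4.3.3. Shares of all features used the 12408 with a mean count of at least 10. Where spread did not exceed counting noise, it was ranked below every other value. The scripts were tested on simulated data. For likeness, the 2 named features with the highest correlation, not overlapping the member, are given. Alternatives were other scalings, thinning to 900000 counts, means and medians over oocytes, leaving out runs, splitting by suffix, other filters, 1.5-fold and all 88 oocytes.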

Additional observations from a re-analysis of the deposited data

Results flagged for a closer look

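Pou5f1 reached 316 CPM in the aged oocyte without a configuration (number 48 with suffix A), which enters no comparison, above the highest of the other 87 oocytes at 259 CPM. It is the only oocyte that the study's table leaves without a configuration, and the methods exclude an outlier in a distance matrix, unnamed there, before further analysis. In the same oocyte 8 of 10 members lay below all 87 others, among them Lin28a at 20.9 CPM (lowest of the others 41.6), Smarca4 at 17.6 CPM (30.6), Nfya at 72.7 CPM (106) and Sall4 at 195 CPM (261), and Nr5a2 at 32 CPM lay inside the range. No member had an oocyte far from the rest among the 8 aged SN oocytes by Dixon's criterion, which was applied to 10 members, and groups over 10 oocytes were not examined this way.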

How the results depend on the processing

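Levels kept their size under TMM factors and median of ratios factors, which left every median within 0.1 (log2) of its value. A member counted where it was 25% higher or lower by the same factor. Members past this bound in aged against young NSN oocytes rose from 0 to 1 (Nfya) with the suffix A, and lay between 0 and 1 when each run was left out. In SN oocytes the same count was 1 with the suffix A and between 0 and 1 without each run, and the median was -0.14 without the suffix and between -0.12 and 0.12 without each run. For SN against NSN in young oocytes, the median was -0.057 after thinning. Its count was 0 after thinning, for means and medians over oocytes, with the suffix A and at 1.5-fold, and between 0 and 3 without each run. In aged oocytes the median was 0.11 with the suffix A and -0.29 without it. The count was 3 with it, 4 without it, 0 at 1.5-fold and between 1 and 2 without each run. All 3 aged SN oocytes with the suffix A belong to the run 25 to 31, so these splits do not separate suffix from run. For spread in aged against young NSN oocytes the median was 0.84 after thinning, 0.84 within runs, 0.54 within runs and suffix, 0.67 with the suffix A, between 0.85 and 1.36 without each run and between 0.95 and 1.22 without each oocyte. Over all oocytes it was 1.07, and 0.49 from median absolute deviations and 1.31 with all 88. For SN against NSN, spread in young oocytes was -0.29, and -0.99 after thinning and 0.10 from median absolute deviations. In aged oocytes it was -1.07, and -2.44 after thinning, -3.44 from median absolute deviations and between -3.96 and 0.52 without each run, reversing without the run 25 to 31. The cause was not tested. Of the values of single members and the shares over all features under these settings, 515 stayed close and 115 moved. The median correlation of pairs of members was 0.24 after thinning, 0.30 ranked within groups and 0.32 with all 88 oocytes. The median level of the members was 20.4 CPM per kb of exon and 30.5 CPM per kb of the longest transcript. The splits within runs or by suffix for spread, the removal of each oocyte and that of aged oocyte 15 were chosen after seeing the data. No paired analysis was possible because the result comes from no test and oocyte numbers are not shared between ages. Low counts limit Nr5a2 most.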
